A study of Homo sapiens with 4 samples.

Results

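The HOX genes analysed here are the protein-coding members of the HOXA, HOXB, HOXC and HOXD clusters, and they were chosen by gene symbol and not by their expression. They are 38 of the 58735 genes in the expression table, with 10 in HOXA, 10 in HOXB, 9 in HOXC and 9 in HOXD. RNA-seq was performed on cells of the label NB4, which names a human acute promyelocytic leukemia cell line, in 2 control libraries from untreated cells and 2 libraries from cells treated with GNE-987, at 25 nM for 24 h by the study's description. GNE-987 is a chimeric degrader that brings BET bromodomain proteins to a ubiquitin ligase. The labels do not say whether the libraries of a group came from separate cultures, so that the P values given here measure only the spread between these libraries, which may be technical.

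HOX genes encode homeodomain transcription factors that lie side by side in clusters, all members of a cluster being transcribed in the same direction. The genes at the 3′ end of a cluster act in anterior parts of the embryo and those at the 5′ end in posterior parts, and genes at matching places in different clusters, such as HOXB4 and HOXC4, are paralogs with the same number. In blood, HOX genes are known for high expression in stem and progenitor cells and for silencing as cells mature. HOX proteins bind DNA together with PBX and MEIS proteins, trithorax complexes with KMT2A and menin hold the clusters open, and polycomb complexes hold them silent. High HOXA9 and MEIS1 expression drives several kinds of acute myeloid leukemia, whereas acute promyelocytic leukemia is known for low HOX expression.

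Libraries held 12321595 to 19361051 reads on genes, with the GNE-987 libraries the shallower ones, and reads of mitochondrial genes made up 3.77% and 4.56% of the reads in control libraries and 15.7% and 15.3% in GNE-987 libraries. The label NB4 was checked against markers. Of 10 promyelocyte genes, 1 was at 0 in all 4 libraries, and their summed expression was 12.9 and 11.2 FPKM (fragments scaled by gene length and library size) in control libraries and 39.0 and 37.3 FPKM in GNE-987 libraries. Of these 10 genes, 3 were at 1 FPKM or more in both control libraries, which were SPI1 (7.52 and 5.68), AZU1 (2.07 and 2.10) and LYZ (2.02 and 1.59). MPO, the myeloperoxidase of promyelocyte granules, was at 0.0246 and 0 FPKM in control libraries and 11.8 and 11.3 FPKM with GNE-987, and CTSG was listed at 0 throughout. The 12 erythroid and megakaryocyte genes summed to 355 and 356 FPKM in control libraries and 559 and 482 FPKM in GNE-987 libraries, with 1 at 0 in all 4. By the calls defined below, 6 of the 10 tested were higher and 4 lower, against 33.6% and 24.9% of all genes tested. GATA1 fell from 124 and 122 to 15.1 and 12.5 FPKM. The 8 lymphoid genes summed to 17.2 and 16.2 against 44.2 and 43.6 FPKM, with 1 at 0. At 1 FPKM or more in both control libraries were 9 of the 12 genes and 1 of the 8. The summed marker expression in the control libraries thus went against the promyelocyte label, and the cells are called here by their label only. The part of these markers in the HOX results was not tested.

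HOX expression in control cells came almost entirely from the HOXB cluster. A gene was called expressed at 1 FPKM or more in both control libraries, and 10 of the 38 genes were, which were HOXB2 to HOXB9, HOXC6 and HOXC9. A further 9 were above 0 but lower, and 19 were listed at 0 in both control libraries. HOXB genes held 90.3% and 89.2% of the summed HOX expression of 135 and 131 FPKM, and HOXC genes 9.72% and 10.7%. HOXD genes held 0.0238% and 0.0256%, and HOXA genes none.

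**Figure D1:**
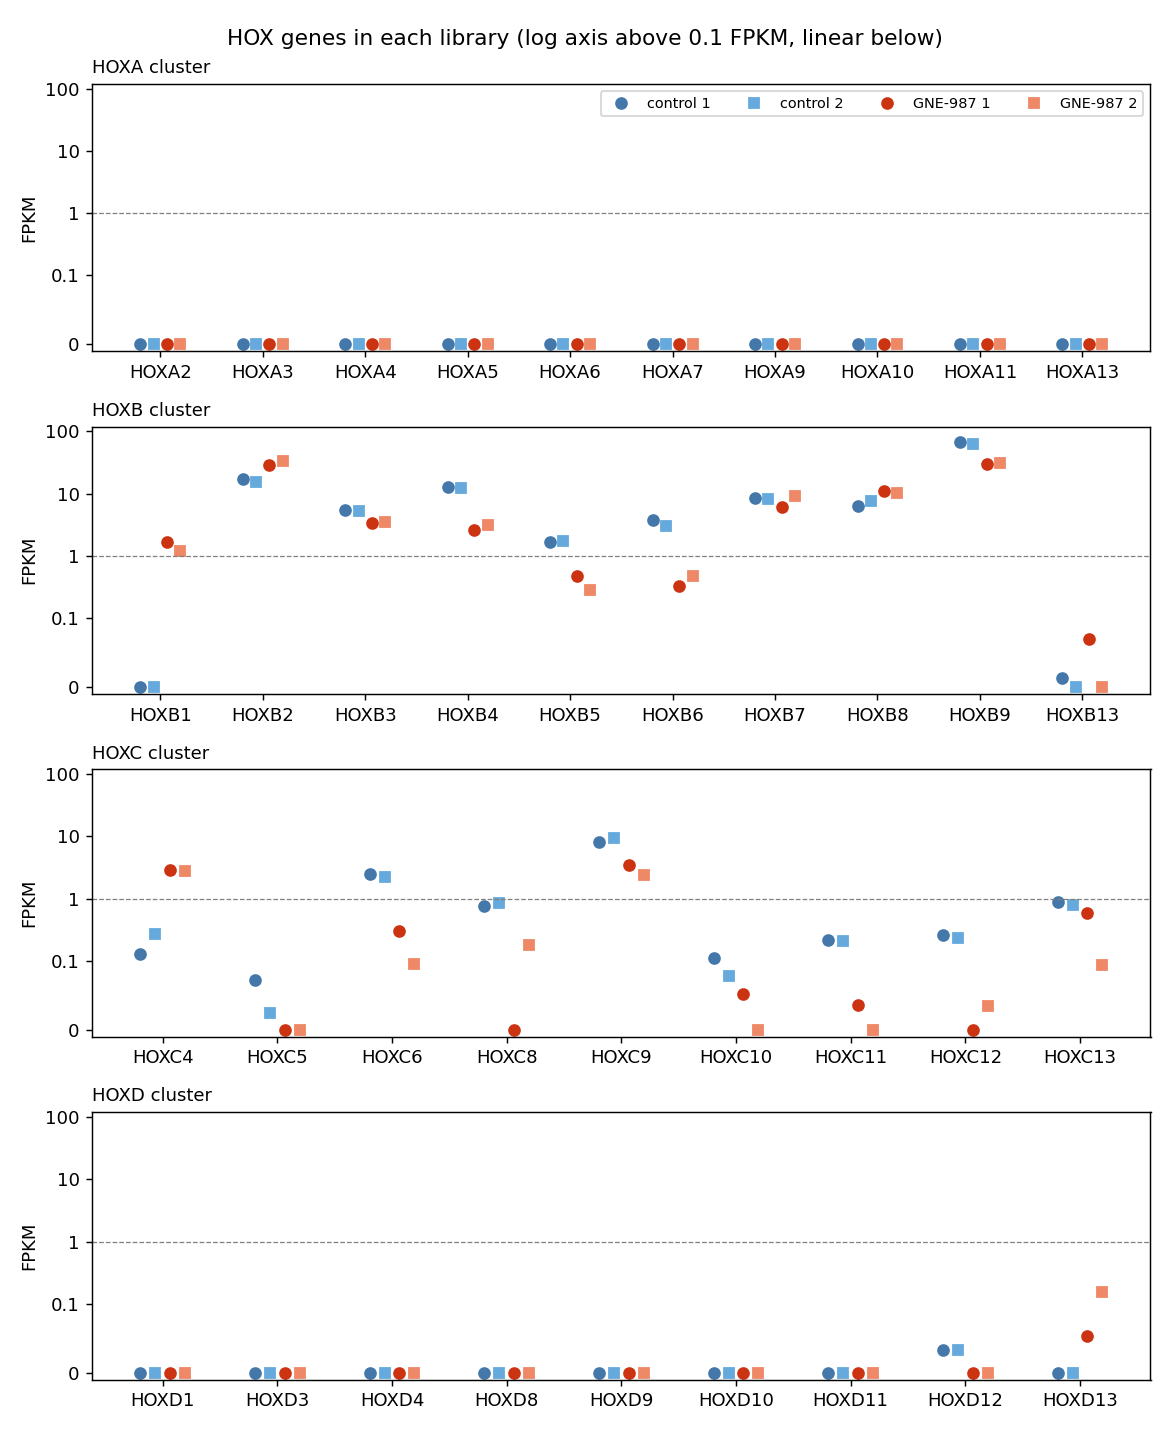
Expression of the 38 HOX genes in each library, by cluster and in the order of their numbers. The vertical axis gives FPKM on a log scale above 0.1 and on a linear scale below, points are single libraries (blue, control; red and orange, GNE-987), and the dashed line marks 1 FPKM. HOXB2 to HOXB9 lie above that line in both control libraries, all 10 HOXA genes lie at 0 in all 4 libraries, and HOXB1 and HOXC4 exceed 1 FPKM only with GNE-987.

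The HOXA cluster was silent at this depth in both conditions. HOXA2, HOXA3, HOXA4, HOXA5, HOXA6, HOXA7, HOXA9, HOXA10, HOXA11 and HOXA13 were at 0 in all 4 libraries. A count of 0 allows up to 3 reads, which is 0.0257 to 0.101 FPKM for these genes in control replicate 1 and 0.0708 to 0.279 FPKM in GNE-987 replicate 1, the library with the highest limits. The limits cover counting error only. The silence extended to the whole region on chromosome 7 from 27100354 to 27200091 (GRCh38), in which all 26 genes of the table, noncoding genes included, were at 0. For comparison, 16.5% of all protein-coding genes were at 0 in all 4 libraries. HOXA9, the leukemia-associated gene of this cluster, was therefore not detectable in cells where HOXB9, its paralog, was the most abundant HOX gene.

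The HOXD cluster was nearly as silent, with 7 of its 9 genes at 0 in all 4 libraries (HOXD1, HOXD3, HOXD4, HOXD8, HOXD9, HOXD10 and HOXD11). HOXD12 had 2 reads in each control library and 0 in each GNE-987 library. HOXD13, the 5′-most gene and a regulator of digit formation, had 0 reads in both control libraries and 1 and 3 reads with GNE-987. These counts are at or under the limit of 3 reads, and no difference was read from them.

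Sequences are shown for the 2 HOX genes that rose with GNE-987, HOXB1 and HOXC4, because both went from near silence to measurable expression. The lines give the 250 bases before the RefSeq start of each gene on its own strand, from chr17:48531012-48531261 (minus strand) and chr12:54016638-54016887 (plus strand) of GRCh38.p14. Capitals mark the letters CCAAT on either strand (read as ATTGG on the other strand) and TGATNNAT, a core that HOX and PBX proteins bind together.
HOXB1: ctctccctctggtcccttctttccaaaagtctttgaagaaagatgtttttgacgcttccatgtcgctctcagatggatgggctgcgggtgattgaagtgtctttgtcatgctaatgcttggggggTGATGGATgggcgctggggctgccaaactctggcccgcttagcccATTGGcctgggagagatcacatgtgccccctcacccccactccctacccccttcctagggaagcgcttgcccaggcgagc
HOXC4: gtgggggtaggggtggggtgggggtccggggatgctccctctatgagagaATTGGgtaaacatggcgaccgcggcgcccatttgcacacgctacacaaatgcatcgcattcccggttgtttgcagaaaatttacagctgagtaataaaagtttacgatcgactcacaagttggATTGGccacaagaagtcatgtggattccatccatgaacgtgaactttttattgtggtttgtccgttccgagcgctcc
Both genes carry CCAAT letters close to the start, from 80 to 76 bases before it in HOXB1 and from 77 to 73 bases before it in HOXC4, and HOXC4 has a further match from 200 to 196. In HOXB1 the TGATNNAT match lies 125 to 118 bases before the start, and the HOXB1 promoter is known for PBX and HOX sites through which HOXB1 maintains its own expression. Matches are descriptions of the letters, and binding was not measured.

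Promoter windows of 300 bases were available from RefSeq for 20 of the 38 genes, which were 9 HOXA genes, 8 HOXD genes, HOXC4, HOXC5 and HOXB1. HOXC4 and HOXC5 share the same window. Searched on both strands, CCAAT was present in 17 of the 20 windows (85.0%), against 35.7% of 27305 promoters of the same length. TGATNNAT was present in 3 windows (15.0%, against 7.60% of all promoters). The GATA factor letters AGATAA were present in 0 of the 20 windows and in 10.5% of all promoters. HOX promoters were also dense in CpG, with a median observed-to-expected ratio of 0.869 against 0.580. Of the 20 genes with a window, 17 were at 0 in both control libraries and none was among the 10 expressed genes, so promoters of expressed and silent HOX genes could not be compared.

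GNE-987 changed the expressed HOX genes unequally. Of the 38 genes, 13 reached a mean of 0.5 FPKM over the 4 libraries and were tested with limma on log2(FPKM + 0.1), and a call needed an unadjusted P under 0.05 together with a change of more than 2-fold in either direction. HOXB4, HOXB5, HOXB6, HOXB9, HOXC6 and HOXC9 fell, HOXB1 and HOXC4 rose, and HOXB2, HOXB3, HOXB7, HOXB8 and HOXC13 did not pass. The 6 that fell are 46.2% of the genes tested, against 24.9% of all 16668 genes tested, and the 2 that rose are 15.4%, against 33.6%, with 58.5% of all genes called in either direction. In 12 of the 13 genes the 2 groups of libraries did not overlap, as in 89.1% of all genes tested, HOXB7 being the one that overlapped. The median log2 fold change of the 13 was -1.10, also with HOXB1 set to its detection limit, beside 0.17 for all genes tested. HOXB1 and HOXC4 passed the filter only through their GNE-987 libraries, and HOXB5, HOXB6, HOXC6 and HOXC13 had a mean under 0.5 FPKM with GNE-987, so for these 6 the filter and the difference are not independent.

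Directions depended on how the libraries were scaled, and this bears on HOXB2 and HOXB8. The deposited values were scaled to read totals that exceeded the reads on genes in control libraries (1.19 and 1.15 times) and fell short of them in GNE-987 libraries (0.679 and 0.688 times). Scaling to the total of reads on genes shifted log2 ratios of FPKM by -0.78 and scaling to GAPDH by -1.85, since GAPDH itself rose from 398 and 432 to 1501 and 1499 FPKM. Median-ratio scaling shifted them by 0.12. With 0.1 added before the logarithm, low genes shifted by less. With median-ratio scaling 3 HOX genes were higher and 5 lower, with the total of reads 2 and 8, and with GAPDH 2 and 10. Over all genes tested the split was 5602 higher and 4148 lower as deposited, 4181 and 6647 with the total of reads, and 3031 and 9738 with GAPDH. Relative to the median gene, the median of the 13 HOX genes was -1.28 as deposited, -1.31 with the total of reads and -1.20 with GAPDH. Each of these scalings multiplies a whole library by a single factor. Values relative to the median gene can thus differ between them only through the 0.1 added, and their likeness is no separate support. HOXB4, HOXB5, HOXB6, HOXC6 and HOXC9 were lower and HOXB1 and HOXC4 higher under each of these 4 scalings. Fewer cells of a type and less RNA per cell cannot be told apart in such bulk libraries.

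**Figure D2:**
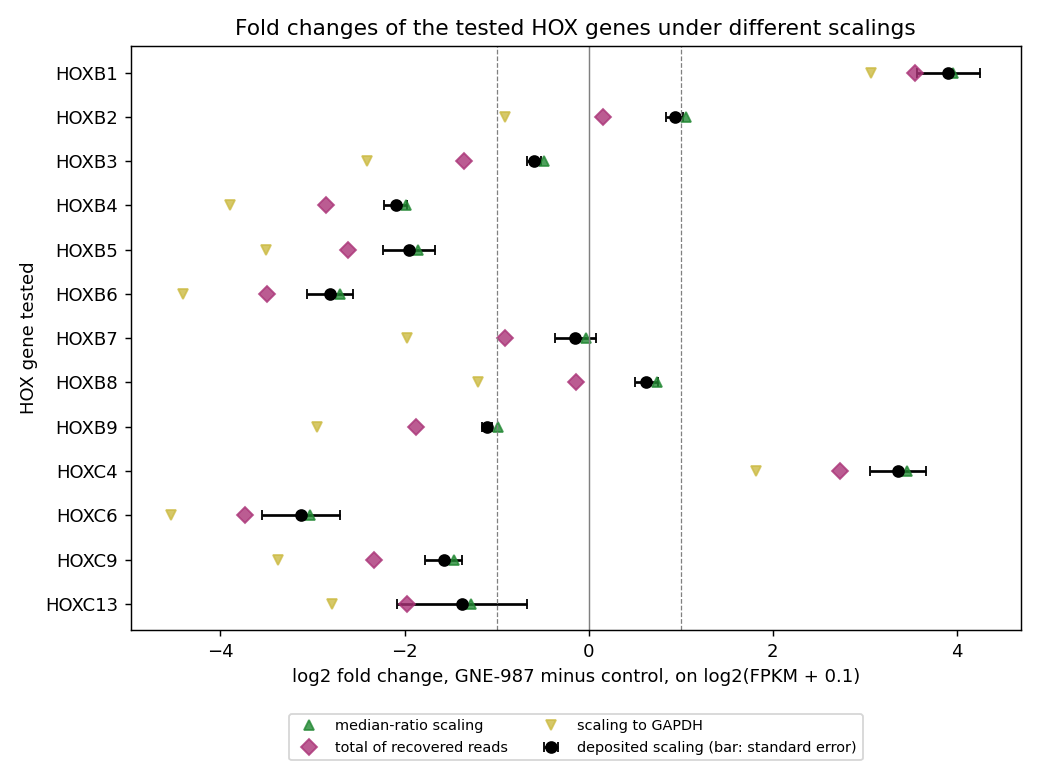
Log2 fold change of the 13 tested HOX genes, GNE-987 minus control, on log2(FPKM + 0.1). Black points with standard error bars (n = 2 libraries per group) use the deposited scaling, triangles median-ratio scaling, diamonds the total of recovered reads and inverted triangles GAPDH, with dashed lines at 1 and -1. HOXB1 and HOXC4 stay above 1 under all 4 scalings, HOXB2 and HOXB8 lie on both sides of 0, and the value of HOXB1 depends on the 0.1 added to its control values of 0.

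HOXB9 was the most abundant HOX gene in control cells. It stood at 66.8 and 63.7 FPKM in the control libraries, or 3969 and 3638 reads, whereas the GNE-987 libraries had 29.4 and 31.3 FPKM, or 634 and 714 reads. Both treated libraries were far below both controls and close to each other. The log2 fold change was -1.10 ± 0.06 (SE) with an adjusted P of 0.000379 (limma with Benjamini-Hochberg adjustment, as for all adjusted P values here). With median-ratio scaling it was -0.98, short of the fold threshold.

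HOXB4, a gene known for expanding blood stem cells when overexpressed, fell more. Its values were 12.9 and 12.1 FPKM in control libraries and 2.58 and 3.14 FPKM with GNE-987, from 1115 and 1004 against 81 and 104 reads. The groups were well apart, with a log2 fold change of -2.09 ± 0.12 (adjusted P = 0.000488). The length at which its FPKM values gave whole reads was 3757 bases, against 2002 bases of exon in GENCODE release 44, so its level relative to other genes is uncertain. At the annotated length it would be 24.2 and 22.7 FPKM in control libraries, while its reads do not depend on length.

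HOXB5 and HOXB6, the next genes toward the 5′ end, fell as well. HOXB5 was at 1.64 and 1.75 FPKM in control libraries and 0.469 and 0.278 FPKM with GNE-987, the latter from 8 and 5 reads, with a log2 fold change of -1.95 ± 0.28 (adjusted P = 0.00468). HOXB6, which is expressed in the erythroid lineage, was at 3.79 and 2.99 FPKM in control libraries and 0.322 and 0.479 FPKM with GNE-987, with a log2 fold change of -2.81 ± 0.25 (adjusted P = 0.00125). The treated libraries lay below the controls in both genes, but the counts behind HOXB5 were few. With 1 in place of 0.1 added before the logarithm, the fold change of HOXB5 was -0.98 and missed the threshold.

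HOXC9 and HOXC6 were the expressed genes of the HOXC cluster, and both fell. HOXC9 was at 8.25 and 9.37 FPKM in control libraries and 3.42 and 2.43 FPKM with GNE-987, from 319 and 348 against 48 and 36 reads, with a log2 fold change of -1.58 ± 0.20 (adjusted P = 0.00320). HOXC6 was at 2.47 and 2.25 FPKM in control libraries and 0.304 and 0.0960 FPKM with GNE-987, the latter from 9 and 3 reads, with a log2 fold change of -3.12 ± 0.42 (adjusted P = 0.00404). HOXC6 fell to near the limit of detection, whereas HOXC9 stayed above 1 FPKM in both treated libraries.

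HOXB1, the 3′-most HOXB gene and a regulator of hindbrain identity, appeared with GNE-987. It had 0 reads in both control libraries and 34 and 26 in the shallower GNE-987 libraries, or 1.64 and 1.19 FPKM. Against the 0.0548 FPKM that 3 reads would give in the shallower control library, its mean of 1.42 FPKM was at least 25.9-fold higher as deposited. Scaling to the total of reads or to GAPDH would lower this bound, since they shift log2 ratios of FPKM by -0.78 and -1.85. The fitted log2 fold change of 3.91 ± 0.34 (adjusted P = 0.00125) depends on the constant added and is no bound. HOXB1 starts 9.88 kb past the 3′ end of HOXB2, on the same strand.

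HOXC4 rose from 0.128 and 0.265 FPKM in control libraries, from 8 and 16 reads, to 2.94 and 2.79 FPKM with GNE-987, from 67 reads in each library. It thus had more reads in the treated libraries although these were shallower, with a log2 fold change of 3.36 ± 0.30 (adjusted P = 0.00133). HOXC4 is the 3′-most gene of its cluster, as HOXB1 is of HOXB, and its paralog HOXB4 fell. Its annotated gene model overlaps those of HOXC5 and HOXC6 on the same strand. HOXC6 had fewer reads with GNE-987 than in control libraries, and HOXC5 had at most 3 reads in any library.

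HOXB2, a gene of hindbrain patterning and one of the most abundant HOX genes in these cells, did not pass the fold threshold. Its values were 17.1 and 15.4 FPKM in control libraries and 29.2 and 33.0 FPKM with GNE-987, with a log2 fold change of 0.93 ± 0.09 (adjusted P = 0.00178). The reads fell from 918 and 794 to 570 and 681, and the log2 fold change was 0.16 with scaling to the total of reads and -0.91 with GAPDH. Relative to the median gene it was 0.76 as deposited, 0.73 with the total of reads and 0.68 with GAPDH. It passed the threshold with median-ratio scaling (1.05), without control replicate 1 (1.01) and without GNE-987 replicate 1 (1.02).

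HOXB8, a gene that blocks myeloid differentiation when overexpressed, was likewise within the fold threshold. It was at 6.20 and 7.56 FPKM in control libraries and 11.2 and 10.1 FPKM with GNE-987, with a log2 fold change of 0.63 ± 0.13 (adjusted P = 0.0134). The value was -0.14 with scaling to the total of reads and -1.20 with GAPDH, scalings that lowered all genes together. Relative to the median gene it was 0.45 as deposited, 0.43 with the total of reads and 0.39 with GAPDH. HOXB7 was at 8.36 and 8.31 FPKM in control libraries and 6.11 and 9.27 FPKM with GNE-987, and its groups overlapped (log2 fold change -0.15 ± 0.22, adjusted P = 0.579). Without GNE-987 replicate 1 its fold change was 0.15.

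HOXB3 was at 5.39 and 5.17 FPKM in control libraries and 3.42 and 3.50 FPKM with GNE-987. The groups did not overlap, but the log2 fold change of -0.60 ± 0.08 (adjusted P = 0.00364) did not reach the threshold as deposited, and it did with the total of reads (-1.36) and with GAPDH (-2.40). The annotated HOXB3 model runs across HOXB4, HOXB5 and HOXB6 on the same strand, and that of HOXB7 across HOXB8 and HOXB9. How reads in shared stretches were assigned is not given in the sources used here, and the values of these neighbors are uncertain to that extent.

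HOXC13, the 5′-most HOXC gene and a regulator of hair keratins, was at 0.896 and 0.802 FPKM in control libraries and 0.592 and 0.0935 FPKM with GNE-987. The treated libraries disagreed, from 12 and 2 reads, and the log2 fold change of -1.37 ± 0.71 did not pass (adjusted P = 0.149). Without GNE-987 replicate 1 it was -2.29 and passed, and without GNE-987 replicate 2 it was -0.45 and did not. Fewer reads with GNE-987 were also seen in HOXC8, HOXC11 and HOXC12, which were under the filter. HOXC8 had 44 and 48 reads in control libraries and 0 and 4 with GNE-987, HOXC12 had 20 and 17 against 0 and 1, and HOXC11 had 16 and 15 against 1 and 0. HOXC10 had 6 and 4 reads against 1 and 0, HOXC5 had 3 and 1 against 0 and 0, and HOXB13, a prostate marker of the HOXB cluster, had 1 and 0 against 2 and 0. The counts of HOXC5 and HOXB13 are at or under the limit of 3 reads, and no difference was read from them. These 6 genes, with HOXD12 and HOXD13, were not tested, and the GNE-987 libraries were the shallower ones, which lowers any count there.

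**Figure D3:**
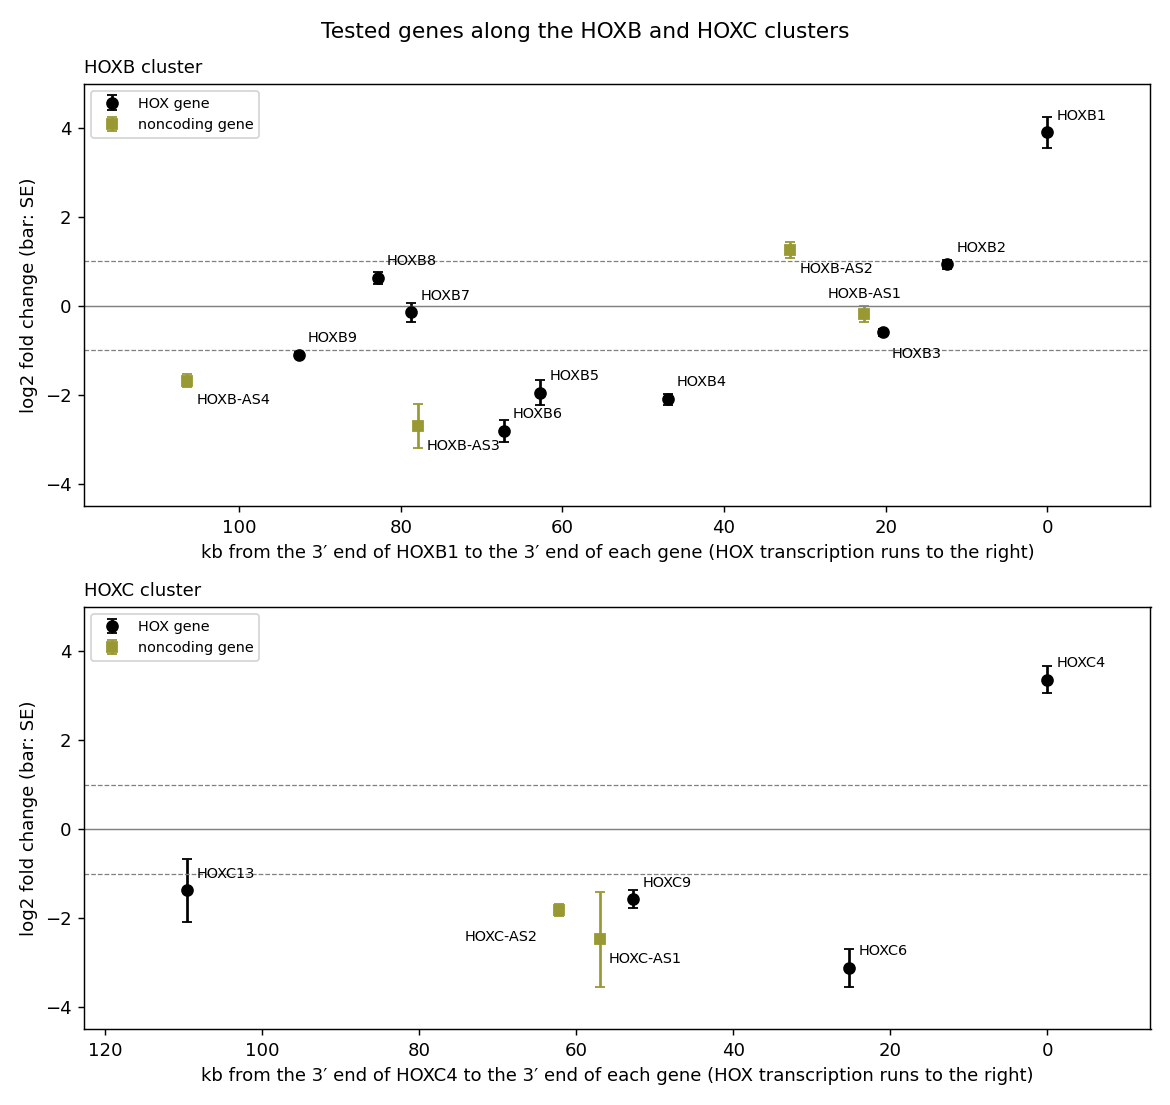
Log2 fold change (GNE-987 minus control, deposited scaling, bars standard errors) of the tested genes along the HOXB and HOXC clusters. The horizontal axis gives the distance in kb from the 3′ end of HOXB1 or HOXC4 to the 3′ end of each gene, with circles for HOX genes and squares for noncoding genes. The values above 2 belong to HOXB1 and HOXC4 at the 3′ ends, and HOXB4, HOXB5 and HOXB6 lie next to each other near -2 and below.

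Along the HOXB cluster the order from the 3′ to the 5′ end was HOXB1 (log2 fold change 3.91), HOXB2 (0.93), HOXB3 (-0.60), HOXB4 (-2.09), HOXB5 (-1.95), HOXB6 (-2.81), HOXB7 (-0.15), HOXB8 (0.63) and HOXB9 (-1.10). The genes that fell thus formed a run of 3 neighbors and a separate one, with genes between them that did not pass. The cluster lies on chromosome 17 from 48528526 to 48728750 on the minus strand (GRCh38), where 19 of the 27 genes of the table were above 0 in a library. The HOXC cluster lies on chromosome 12 from 53938831 to 54056030 on the plus strand, with 14 of 22 genes above 0, and the HOXD cluster on chromosome 2 from 176092721 to 176190907, with 4 of 15.

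The make-up of HOX expression within a library does not depend on scaling between libraries. HOXB9 made up 49.4% and 48.6% of the summed HOX FPKM in control libraries and 32.0% and 32.0% with GNE-987. HOXB2 went from 12.6% and 11.7% to 31.8% and 33.7%, and HOXB8 from 4.58% and 5.77% to 12.2% and 10.3%. HOXB4 went from 9.52% and 9.22% to 2.81% and 3.20%, whereas HOXC4 went from 0.0942% and 0.203% to 3.20% and 2.84%. With 2 libraries per group an exact permutation test cannot go below p = 0.333, and no P is given for the shares. The ratio of HOXB2 to HOXB9 was 0.256 and 0.241 in control libraries and 0.993 and 1.05 with GNE-987, and that of HOXC4 to HOXC9 was 0.0155 and 0.0283 against 0.860 and 1.15. The ratio of HOXB2 to HOXB4 was 1.32 and 1.27 in control libraries and 11.3 and 10.5 with GNE-987, or 0.706 and 0.678 against 6.03 and 5.61 at the annotated length of HOXB4, so that which was higher in control libraries is uncertain.

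**Figure D4:**
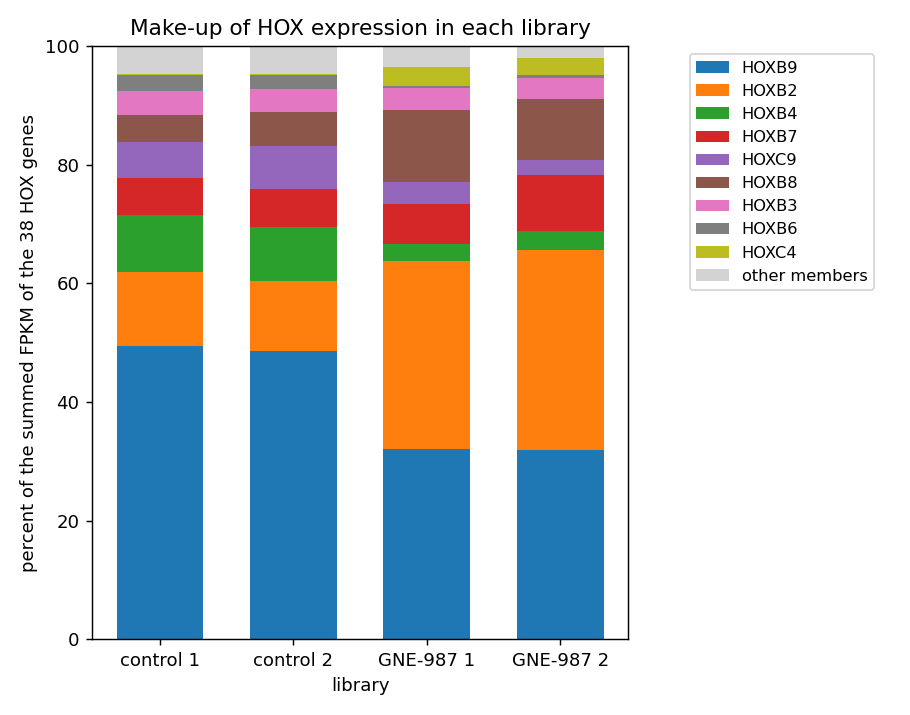
Make-up of HOX expression in each library. Each bar is 1 library, and its segments give the percent of the summed FPKM of the 38 HOX genes held by the 9 named genes and by the others together. HOXB9 holds 49.4% and 48.6% in the control libraries and 32.0% in each GNE-987 library, and HOXB2 holds 31.8% and 33.7% in the latter.

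By level per length, the order in control libraries was HOXB9, HOXB2, HOXB4, HOXC9, HOXB7, HOXB8, HOXB3, HOXB6, HOXC6 and HOXB5. Only HOXC9 and HOXB7 overlapped among neighbors in this order. The place of HOXB4 rests on its uncertain length, and at the annotated length it would stand above HOXB2 in control libraries. With GNE-987, HOXB9 and HOXB2 overlapped at the top, followed by HOXB8 and HOXB7, and then by HOXB3, HOXB4, HOXC4 and HOXC9, among which HOXC9 overlapped with each of the others. The summed HOX expression went from 135 and 131 FPKM to 91.8 and 98.1 FPKM, and the reads on HOX genes from 8489 and 7833 to 1958 and 2195.

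Antisense and other noncoding genes inside the clusters were compared next. Of 24 such genes matched in the table, 13 were at 0 in all 4 libraries and 7 were tested. HOXB-AS3, HOXB-AS4, HOXC-AS2 and MIR196A1 were lower, HOXB-AS2 was higher, and HOXB-AS1 and HOXC-AS1 did not pass, with a median log2 fold change of -1.81 (-1.68 with MIR196A1 set to its detection limit) beside 0.17 for all genes tested. Of all genes tested, 24.9% were lower and 33.6% higher. HOXB-AS3, which overlaps HOXB5 and HOXB6 on the other strand, was at 2.16 and 3.33 FPKM in control libraries and 0.188 and 0.533 FPKM with GNE-987 (log2 fold change -2.71 ± 0.49, adjusted P = 0.00963). HOXB-AS2, which lies within the HOXB3 model, was at 1.18 and 1.60 FPKM against 3.40 and 3.49 FPKM (1.26 ± 0.18, adjusted P = 0.00478), and its value was -0.51 with GAPDH. Whether strand was used in counting is not given in the sources used here, so that reads of an antisense gene and of its HOX partner cannot be told apart.

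The other tested noncoding genes were lower or did not pass. HOXB-AS4, which starts before HOXB9 on the other strand, was at 2.27 and 2.64 FPKM in control libraries and 0.715 and 0.677 FPKM with GNE-987 (log2 fold change -1.68 ± 0.15, adjusted P = 0.00138). HOXC-AS2, which overlaps the HOXC6 and HOXC9 models, was at 2.41 and 2.53 against 0.648 and 0.614 FPKM (-1.81 ± 0.14, adjusted P = 0.000909). HOXC-AS1 was at 3.52 and 5.57 against 0.202 and 2.11 FPKM, and its treated libraries were too far apart for a call (-2.47 ± 1.07, adjusted P = 0.103). HOXB-AS1 was at 2.09 and 2.15 against 2.15 and 1.60 FPKM, with overlapping groups. HOTAIR, the long noncoding RNA between HOXC11 and HOXC12, had 4 and 8 reads in control libraries and 0 in both others, and HOTAIRM1, HOTTIP and the HOXA antisense genes were at 0 throughout.

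The microRNA genes of the clusters are known for acting on HOX transcripts, and their mature forms are shown for the family that has members in 3 of the clusters, with the seed (bases 2 to 8) in capitals, from RefSeq on GRCh38.p14. MIR196A1 lies in HOXB, MIR196A2 in HOXC and MIR196B in HOXA, and all 3 give the same seed.
miR-196a-5p: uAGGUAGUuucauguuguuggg
miR-196b-5p: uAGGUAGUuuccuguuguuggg
HOXB8 site: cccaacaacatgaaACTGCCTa
The third line is the stretch of HOXB8 that pairs with miR-196a, in exon 2 at chr17:48612770-48612791 on the minus strand, in the 3′ untranslated region 411 bases past the stop codon, with the bases across from the seed in capitals. Of the 22 bases, 21 form Watson-Crick pairs and 1 forms a G:U pair, which lies in the seed. MIR196A1 was at 4.96 and 1.94 FPKM in control libraries, with 8 and 3 reads behind them, and at 0 in both GNE-987 libraries. In those libraries 3 reads would be worth 5.13 and 4.86 FPKM, more than its control mean of 3.45 FPKM. The difference was therefore not detectable at this depth, no fold is given, and its place among the lower genes rests on the fit alone. MIR196A2 and MIR196B were at 0 in all 4 libraries, as were MIR10A, MIR10B and MIR615. Such libraries hold reads of precursor or host transcripts and do not measure mature microRNAs, and MIR196A1 lies inside the annotated HOXB7 model.

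Genes around the clusters were compared to see whether the values of the HOX genes continued beyond them. Of 26 flanking genes matched, 20 were tested, 3 were higher, 5 were lower and 12 did not pass, with a median log2 fold change of -0.39. Over all genes tested 33.6% were higher and 24.9% lower, with a median of 0.17, so the share lower was near that of all genes. The tested genes nearest to HOXB, SNX11 on the 3′ side (404.9 kb away) and CALCOCO2 on the 5′ side (102.3 kb), had values of -0.98 and -0.43 and did not pass. Nearer to HOXB lay 2 genes under the filter. TTLL6 on the 5′ side (33.5 kb) was at 0 throughout. SKAP1, an adaptor gene of T cells 98.3 kb away on the 3′ side, had 0 reads in both control libraries and 5 and 14 with GNE-987. As deposited, its mean was at least 8.05-fold higher than 3 reads in a control library would give, and scaling to the total of reads or to GAPDH would lower this bound. SKAP1 thus had reads only with GNE-987, as did HOXB1. This was not particular to the region, since PKNOX2, FLT3 and SOX4 of other lists also had reads only with GNE-987. The tested genes nearest to HOXC, CALCOCO1 (211.1 kb) and SMUG1 (65.2 kb), had -0.47 and -0.78 and did not pass. SKAP2 and HIBADH beside the silent HOXA cluster had -0.25 and -0.06, whereas LNPK and MTX2 beside the silent HOXD cluster fell (-1.17 and -2.40). These 4 tested genes had 0.657 to 46.7 FPKM in every library. The homeobox genes closer to the silent clusters had few or no reads, with EVX1 (42.6 kb from HOXA) at 0 throughout and EVX2 (8.8 kb from HOXD) at 2 and 2 reads in control libraries and 0 and 1 with GNE-987.

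Farther flanking genes included both directions. NFE2, an erythroid and megakaryocyte transcription factor gene beyond HOXC, fell from 58.6 and 52.9 to 3.25 and 2.98 FPKM (log2 fold change -4.12 ± 0.08, adjusted P = 0.000117). CBX5, the heterochromatin protein gene beyond HOXC, rose from 10.02 and 10.4 to 55.1 and 53.8 FPKM (2.40 ± 0.05, adjusted P = 0.000115). CBX1 and NFE2L1 beyond HOXB fell (log2 fold changes -1.68 and -1.30), and the ATP synthase genes ATP5MC1 and ATP5MC2 were higher by 1.06 and 1.09 as deposited, but at -0.79 and -0.76 with GAPDH.

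Cofactors of HOX proteins were few in these cells. Of 9 PBX, MEIS and PKNOX genes, 4 were tested, with PBX2 and MEIS2 lower and PKNOX1 higher. For all genes tested the shares were 24.9% lower and 33.6% higher. PBX2, the most abundant, was at 34.3 and 34.7 FPKM in control libraries and 6.86 and 6.81 FPKM with GNE-987, with a log2 fold change of -2.32 ± 0.05 (adjusted P = 0.000118). MEIS2 was at 1.72 and 1.80 against 0.388 and 0.451 FPKM (-1.84 ± 0.18, adjusted P = 0.00161), and PKNOX1 at 1.74 and 1.92 against 5.21 and 5.69 FPKM (1.52 ± 0.11, adjusted P = 0.000721), though at -0.27 with GAPDH. MEIS1, the partner of HOXA9 in leukemia and named here after its values were seen, was under the filter at 0.489 and 0.405 FPKM in control libraries and 0.372 and 0.249 FPKM with GNE-987.

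Chromatin regulators that hold HOX clusters open or closed were mostly expressed, 26 of 28 at 1 FPKM or more in both control libraries and 24 in both GNE-987 libraries. Of 26 tested, 4 were higher, 12 were lower and 10 did not pass, with a median log2 fold change of -0.68. The shares over all genes tested were 33.6% higher and 24.9% lower, with a median of 0.17. Among the proteins that keep HOX genes active, MEN1 (menin) was at 16.6 and 17.1 FPKM in control libraries and 5.01 and 4.40 FPKM with GNE-987 (log2 fold change -1.82 ± 0.09, adjusted P = 0.000341). ASH2L, a core subunit of KMT2 complexes, fell by 1.92 and the histone H3K36 methyltransferase gene NSD1 by 2.84 on the log2 scale. KMT2A itself was at 3.65 and 4.58 against 6.95 and 7.48 FPKM (0.80 ± 0.14) and did not pass.

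Members of the polycomb complexes moved in both directions. EZH2, the H3K27 methyltransferase, rose from 30.1 and 29.6 to 73.0 and 76.8 FPKM (log2 fold change 1.32 ± 0.05, adjusted P = 0.000206), JARID2 by 1.45 and CBX8 by 1.64. KDM6A, an H3K27 demethylase that acts against polycomb, rose by 1.03. CBX2, another reader of H3K27 methylation, fell by 1.87 on the log2 scale, as did the partner of EZH2 named EED, by 1.41. RNF2, BMI1 and ASXL1 were lower too (-1.76, -1.60 and -1.35), whereas SUZ12 (-0.50) and PHC2 (0.23) did not pass. The sign of the 4 increases called, in EZH2, JARID2, CBX8 and KDM6A, depended on scaling. With GAPDH the values were -0.53 for EZH2, -0.39 for JARID2, -0.18 for CBX8 and -0.79 for KDM6A, and with the total of reads they were 0.55, 0.68, 0.88 and 0.27. Relative to the median gene all 4 were higher with GAPDH, by 1.07, 1.20, 1.41 and 0.80. Such scaling changes these relative values only through the 0.1 added.

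**Figure D5:**
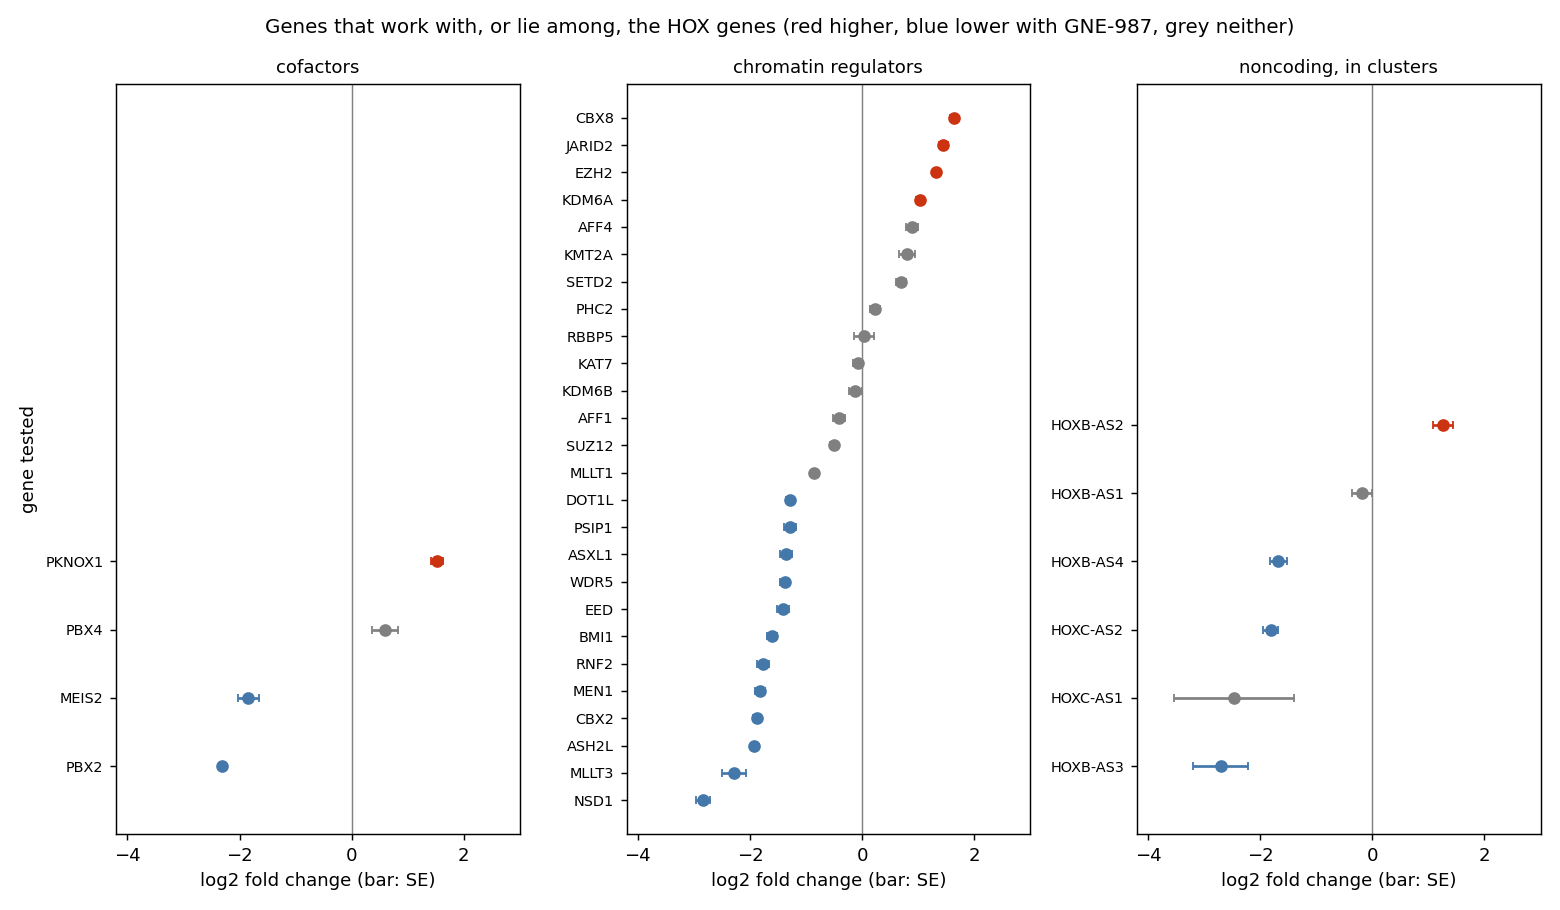
Log2 fold change (GNE-987 minus control, deposited scaling, bars standard errors) of the tested HOX cofactors, chromatin regulators and noncoding genes inside the clusters, with red for higher, blue for lower and grey for genes that did not pass. MIR196A1 is left out because its control mean lies under the detection limits of the treated libraries. NSD1 lies lowest among the regulators and CBX8 highest.

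Sequence-specific factors known to act on HOX clusters included both directions, with 10 of 15 tested, 1 higher, 5 lower and 4 that did not pass, and a median log2 fold change of -0.93. All genes tested gave 33.6% higher, 24.9% lower and a median of 0.17. RARA, the retinoic acid receptor that is fused to PML in acute promyelocytic leukemia, rose from 6.56 and 5.43 to 38.9 and 39.5 FPKM (log2 fold change 2.70 ± 0.11, adjusted P = 0.000248), and reads of RARA and of a fusion transcript cannot be told apart. Its partners RXRA and RXRB fell, with log2 fold changes of -1.92 and -1.96. GATA1 fell from 124 and 122 to 15.1 and 12.5 FPKM (-3.15 ± 0.10, adjusted P = 0.000191) and GATA2 from 73.6 and 71.2 to 28.0 and 28.5 FPKM (-1.36 ± 0.04).

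Genes known as targets of HOXA9 and MEIS1 in blood cells were compared last. Of 10 such genes, 6 were tested, of which 5 were lower and 1 higher, with a median log2 fold change of -2.05, and CD34 and ERG were at 0 in all 4 libraries. Among all genes tested 24.9% were lower and 33.6% higher, with a median of 0.17. MYB, a transcription factor gene of progenitor cells, fell from 27.9 and 30.1 to 1.11 and 1.79 FPKM (-4.26 ± 0.24, adjusted P = 0.000475). CDK6, LMO2 and MECOM fell, with log2 fold changes of -2.42, -2.33 and -1.76. ID2, an inhibitor of basic helix-loop-helix factors, rose from 2.74 and 2.77 to 6.08 and 6.06 FPKM (1.11 ± 0.08), with -0.70 under GAPDH. FLT3, a cytokine receptor gene, and SOX4, a transcription factor gene, were under the filter, with 0 reads in both control libraries and 16 and 8 reads and 24 and 19 reads with GNE-987. As deposited, their means were at least 10.4-fold and 18.5-fold higher than 3 reads in a control library would give. Scaling to the total of reads or to GAPDH would lower these bounds. HOXA9 was at 0 in these cells, as given above.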

How the data were processed

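RNA-seq values were read from 1 table of 58735 genes in 4 libraries labelled NB4, 2 untreated and 2 treated with GNE-987. The authors mapped filtered reads with HISAT (HISAT2 2.0.5 and hg38 in the submitters' processing notes), used DESeq2 for their own comparison and deposited 1 FPKM value for each gene in each library. The counting program, its use of strand and the annotation are not given in the sources used here. Groups came from the labels, and dose and time from the study. Names and positions came from GENCODE release 44, which holds 58207 of the identifiers.

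The 38 HOX genes and the gene lists were chosen with earlier results of these data known. log2(FPKM + 0.1) was tested for genes averaging 0.5 FPKM or more with limma 3.58.1 in R 4.3.3 (empirical Bayes with trend, two-sided, no replicate block), with Benjamini-Hochberg adjustment over 16668 genes. A call needed an unadjusted P under 0.05 with a fold change above 2 or below 0.5. All 38 members were accounted for. From the other lists, called genes averaging 1 FPKM or more were named, at most 4 per list and direction by size of change, with every tested noncoding gene and the nearest tested flanking genes. EED, RNF2, BMI1, ASXL1, SUZ12, PHC2, KMT2A, HOTAIR, MEIS1, CD34, ERG, FLT3, SOX4, SKAP1, TTLL6, EVX1, EVX2 and the promyelocyte markers were named after their values were seen. A gene of the chromatin regulator list is not reported here and is left out of its counts.

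Whole reads were worked out from the step sizes in the FPKM table (tolerance 0.01). At GENCODE lengths 53.0% of 32895 genes above 0 came out whole, and the others did so at another whole length, among them 19 of the 21 HOX genes above 0. Detection limits are 3 reads. The steps were tested on simulated data. Promoters and microRNAs came from RefSeq (GRCh38.p14), and motif letters were searched in Python 3.11.15. Alternatives were other pseudocounts, filters, scalings, adjusted P values, a replicate block and leaving out each library.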

Additional observations from a re-analysis of the deposited data

How the results depend on the processing

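Of 193 HOX fold changes over 15 settings, 173 kept their direction and their side of the threshold, 13 newly passed, 2 no longer passed and 5 changed sign. The changes of sign were HOXB2 (-0.91) and HOXB8 (-1.20) with GAPDH, HOXB8 with the total of reads (-0.14) and with limma-voom on recovered reads (-0.14), and HOXB7 without GNE-987 replicate 1 (0.15, with a range of -0.44 to 0.15 when each library was left out). Of 734 values of 49 genes named from the lists, 630 kept both, 58 no longer passed, 32 newly passed and 14 changed sign. With GAPDH these were PKNOX1 (-0.27), EZH2 (-0.53), JARID2 (-0.39), CBX8 (-0.18), KDM6A (-0.79), HOXB-AS2 (-0.51), ATP5MC2 (-0.76), ATP5MC1 (-0.79), ID2 (-0.70), ADNP (-0.80) and IRX5 (-0.74). Relative to the median gene all 11 were higher (0.79 to 1.41), values that such scaling changes only through the 0.1 added. HIBADH was 0.059 with median-ratio scaling and -0.12 to 0.0012 without single libraries, and HOXB-AS1 -0.38 to 0.020 without single libraries. With a mean of at least 1 FPKM, 1 HOX gene was higher, since HOXB1 was then not tested. With GAPDH 10 HOX genes, 73 list genes and 9738 of all genes were lower, and 2 list genes and 3031 of all genes higher. With the total of reads 4 list genes were higher and 6647 of all genes lower, with mitochondrial genes left out 5 list genes were higher, and with limma-voom 4 list genes were higher and 6763 of all genes lower. Without a filter 24 list genes and 8757 of all genes were higher, and with quantile normalization 9 list genes. The deposited values gave 15 and 38 list genes higher and lower. Both scalings to total reads and limma-voom were chosen after seeing the data, and the cause of these changes was not tested. Replicate numbers did not pair the libraries (correlation of deviations 0.0054), and with a replicate block 2 HOX genes were higher and 6 lower, as without it. The 2 planned count tests were left out, since the table holds FPKM. With 3 to 9 reads in a treated library, as for HOXB5 and HOXC6, and 2 libraries per group, depth limits what can be called.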

Other observations

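Homeobox genes outside the HOX clusters were compared as further members of the same protein class. Of 47 such genes, 19 were tested, of which 4 were higher, 5 lower and 10 did not pass, with a median log2 fold change of -0.11, and 7 were at 0 in all 4 libraries. Over all genes tested 33.6% were higher and 24.9% lower, with a median of 0.17, so the share lower was near that of all genes. DLX1, a distal-less gene, rose from 0.796 and 0.952 to 8.60 and 9.33 FPKM (log2 fold change 3.22 ± 0.13, adjusted P = 0.000247 in limma with Benjamini-Hochberg adjustment), also with GAPDH (1.45). PITX1, a gene of hindlimb identity, fell from 32.3 and 30.8 to 7.56 and 8.68 FPKM (-1.95 ± 0.09). TGIF2, SIX5 and ZEB2 fell by 3.19, 2.39 and 1.92 on the log2 scale. ADNP and IRX5 were higher by 1.04 each as deposited, and were at -0.80 and -0.74 with GAPDH.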
